A study of Mus musculus with 24 samples.

Results

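Adding amnion epithelial cells to an infusion of angiotensin II left the brain expression profile close to that of angiotensin II alone. The comparison covered the brains of 6 male mice infused with angiotensin II and 6 male mice given angiotensin II + amnion epithelial cells. It was read over the 13694 genes, of 54532 in the deposited table (25.1%), that had a mean of 1 FPKM or more over these 12 libraries. FPKM scales the fragments of a gene to its length and to the number of fragments in the library. None of the 13694 genes (0.00%) passed an adjusted p under 0.05 in limma, and 409 passed an unadjusted p under 0.05. For 12791 genes (93.4%) the whole 95% confidence interval of the difference lay within 1.5-fold in either direction.

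Angiotensin II is the active peptide of the renin-angiotensin system, and its infusion is a standard way to raise blood pressure in mice. In hypertension the small vessels, perivascular macrophages, microglia and myelin of the brain are the elements most often examined. Amnion epithelial cells are taken from the amnion of human placentae and are known for the release of factors that dampen inflammation and fibrosis. The question put to these brains was whether such cells alter the genes expressed during the infusion.

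The mice were C57Bl6 wild types of 8 to 12 weeks. Angiotensin II was given at 0.7 mg/kg/day for 2 weeks by a subcutaneous osmotic minipump in all 12. The cells were given once into the tail vein on the day of pump surgery, and the mice without cells received saline. Vehicle mice and vehicle + amnion epithelial cell mice, 6 of each, received saline in the pump and entered the same model fit, which makes 24 mice in all. Whole brain hemispheres were sequenced in bulk, so fewer cells of a type and less RNA per cell cannot be told apart. The human cells themselves were not traced, because the table holds mouse genes.

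The recovered depth was 16536449 to 22464979 fragments per library, with medians of 18625085 with angiotensin II and 18914549 with the added cells. A library set stood apart, however. The sum of FPKM was 278042 to 296934 in 9 libraries and 338334 to 348007 in 3, which were angiotensin II mouse 5 and angiotensin II + amnion epithelial cell mice 5 and 6. The mitochondrial share of fragments was 4.79% to 5.75% in the former and 6.66% to 6.85% in the latter. Mean gene length weighted by fragments was 5748 to 5918 bases and 5026 to 5107 bases, respectively. The first principal component of the 12 libraries held 57.8% of the variance and separated these sets. The set was therefore a term in the fit. The sets are called the low set and the high set below, and their origin is not given in the labels.

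The median gene differed by -0.0046 on the log2 scale between the groups, and the median size of a difference regardless of direction was 0.039 with a median standard error of 0.066. An interval within 2-fold was found for 13295 of the 13694 genes (97.1%). Precision was lowest for genes of low expression. Between 1 and 2 FPKM, 77.9% of 2390 genes had an interval within 1.5-fold, while between 10 and 20 FPKM it was 99.1% of 2215 genes. The gene nearest to the limit of 1 FPKM on the inside was 4933417D19Rik, and CT025652.1 was nearest on the outside, both with a mean of 1.0 FPKM.

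The 409 genes with an unadjusted p under 0.05 are 2.99% of the genes examined. They divided into 150 genes (1.10%) that were higher with amnion epithelial cells and 259 genes (1.89%) that were lower. With limma voom on the recovered reads the counts were 184 and 199. The smallest unadjusted p was 0.000327 and the smallest adjusted p was 1.0. The differences were small, with a median of 0.20 among the higher and -0.15 among the lower genes. Only 31 of the 409 differed more than 1.5-fold and 13 more than 2-fold. All 409 had the same direction within the low set alone, where 220 of them also passed an unadjusted p under 0.05. The low set holds 9 of the 12 libraries on which the 409 were chosen, so this is no independent check. The fit without the set term gave 114 genes.

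Among the genes higher with the cells, Spryd4 had the lowest p. It ranged from 3.75 to 4.76 FPKM with a median of 4.40 after angiotensin II, and from 4.59 to 6.18 with a median of 5.51 after the added cells. The lowest 3 values all belonged to angiotensin II mice, and the 5 highest to mice given cells, with overlap between them. This is a log2 difference of 0.27 ± 0.064 (SE), with an unadjusted p of 0.000327 and p = 0.00866 in the exact permutation test. Means in the vehicle and vehicle + amnion epithelial cell groups were 5.44 and 5.18 FPKM, and the interaction was estimated at 0.30 (limma, unadjusted p = 0.00354). The gene was chosen on the difference under angiotensin II, which is part of the interaction, so this p is not an independent test. For the interaction 0 genes passed an adjusted p under 0.05. Spryd4 lies on chromosome 10 (128209908 to 128211807, GRCm38) and overlaps Gls2, so reads shared between them are uncertain.

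Camp, which encodes the cathelicidin peptide of neutrophil granules, showed the largest difference of the leading genes. The 6 angiotensin II brains ranged from 0.0703 to 1.42 FPKM with a median of 0.458, and the 6 brains with cells from 0.688 to 3.03 with a median of 1.34. A single angiotensin II mouse, number 3, reached into the range of the treated mice. On the log2 scale the difference was 1.48 ± 0.45 (SE), with an unadjusted p of 0.00308 and p = 0.0152 in the exact permutation test. These values rest on 1 to 46 reads per library. In the vehicle groups the means were 0.518 and 0.464 FPKM.

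Polr2d, Rraga and H2afy2 followed with smaller differences. Polr2d encodes a subunit of RNA polymerase II and ranged from 13.9 to 21.6 FPKM with a median of 16.8 after angiotensin II and from 17.1 to 24.2 with a median of 18.9 after the added cells. Its highest value in each group came from the high set, and within the sets the log2 difference was 0.18 ± 0.049 (SE). Rraga, the GTPase RagA that relays amino acid supply to mTORC1, ranged from 61.6 to 66.8 FPKM with a median of 63.9 and from 65.5 to 72.9 with a median of 67.2. Only angiotensin II mouse 1 lay within the range of the mice with cells, although the log2 difference was only 0.10 ± 0.029 (SE). H2afy2, which encodes the histone variant macroH2A2, ranged from 9.87 to 12.3 FPKM with a median of 10.3 and from 11.2 to 14.2 with a median of 11.9. The 1 angiotensin II value above the lowest treated mouse was from the high set, and the log2 difference was 0.16 ± 0.048 (SE). The exact permutation test gave p = 0.0758 for Polr2d, 0.00866 for Rraga and 0.0173 for H2afy2.

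Further down the same order stood Zfand4 (0.32), Galm (0.39), Ppargc1b (0.38), Wrn (0.30), Anapc16 (0.13) and Coasy (0.11), given as log2 differences. Galm converts the anomers of galactose, Ppargc1b is a coactivator of mitochondrial genes, Wrn is a DNA helicase, Anapc16 is a subunit of the anaphase-promoting complex and Coasy completes coenzyme A synthesis. Ppargc1b, Wrn and Anapc16, and Polr2d above, passed an unadjusted p under 0.05 with the set term and not without it. Wrn was at 0.930 to 1.28 FPKM in the low set after angiotensin II and at 1.22 to 1.5 after the added cells, whereas the high set held 0.457 and 0.560 to 0.591 FPKM.

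Among the lower genes, Ptgs1 encodes cyclooxygenase 1, the constitutive enzyme of prostaglandin synthesis. It ranged from 2.84 to 3.62 FPKM with a median of 3.11 after angiotensin II and from 1.84 to 3.0 with a median of 2.71 after the added cells. The 2 lowest values were the treated mice of the high set, and 5 of 6 treated mice lay below all angiotensin II mice. This gave a log2 difference of -0.29 ± 0.069 (SE), with an unadjusted p of 0.000386 and p = 0.00866 in the exact permutation test. Within the low set alone it was -0.19.

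Ajap1, a transmembrane protein of adherens junctions, did not overlap between the groups. It ranged from 14.8 to 16.5 FPKM with a median of 15.3 after angiotensin II and from 12.8 to 14.8 with a median of 14.1 after the added cells, where the shared figure of 14.8 is a rounding. The log2 difference was -0.15 ± 0.040 (SE), with an unadjusted p of 0.0011 and p = 0.00216 in the exact permutation test, the smallest that 924 splits of the mice allow. Vehicle mice without and with cells had means of 14.8 and 14.9 FPKM.

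In the other 4 of the 6 leading lower genes the ranges of the groups overlapped widely, and they differed once the library sets were kept apart. Dhrs3, which reduces retinaldehyde to retinol, was at 6.5 to 7.70 FPKM in the low set after angiotensin II and at 5.61 to 6.20 after the added cells. In the high set it was at 10.4 and at 8.62 to 9.18 FPKM, so within each set every treated mouse lay below every angiotensin II mouse. Over all mice the ranges were 6.5 to 10.4 with a median of 6.88 and 5.61 to 9.18 with a median of 6.10. With the set term the log2 difference was -0.23 ± 0.055 (SE). The exact permutation test gave p = 0.446 over all splits and p = 0.00265 when mice were exchanged only within their set, an alternative chosen after seeing the data.

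Rtl8a, a gene derived from a retrotransposon Gag sequence, had the same pattern. It was at 41.4 to 45.1 FPKM in the low set after angiotensin II and at 37.7 to 40.8 after the added cells, and the high set held 68.9 and 60.6 to 64.0 FPKM. The log2 difference was -0.16 ± 0.039 (SE), with p = 0.911 over all splits and 0.00529 within sets in the exact permutation test. Mien1 and Tmem176b had log2 differences of -0.28 and -0.15. Tmem176b overlaps Tmem176a, and Mien1 overlaps Erbb2, so part of their reads may be shared.

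Mien1 ranged from 18.0 to 39.4 FPKM with a median of 23.5 after angiotensin II and from 16.9 to 36.4 with a median of 18.8 after the added cells. Tmem176b ranged from 13 to 20.1 FPKM with a median of 13.4 and from 11.3 to 18.6 with a median of 13 FPKM. The high set held the highest values of both genes in each group. Parp11 (-0.19), Zfp956 (-0.14), Pgm5 (-0.29), Cpne2 (-0.13) and Spef1 (-0.22) completed the order, as log2 differences. Spef1 binds the microtubules of cilia. All 24 leading genes kept an unadjusted p under 0.05 in each of the 12 fits that left out 1 mouse. They were chosen for the lowest p in these same mice, so this is no independent check.

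**Figure D1:**
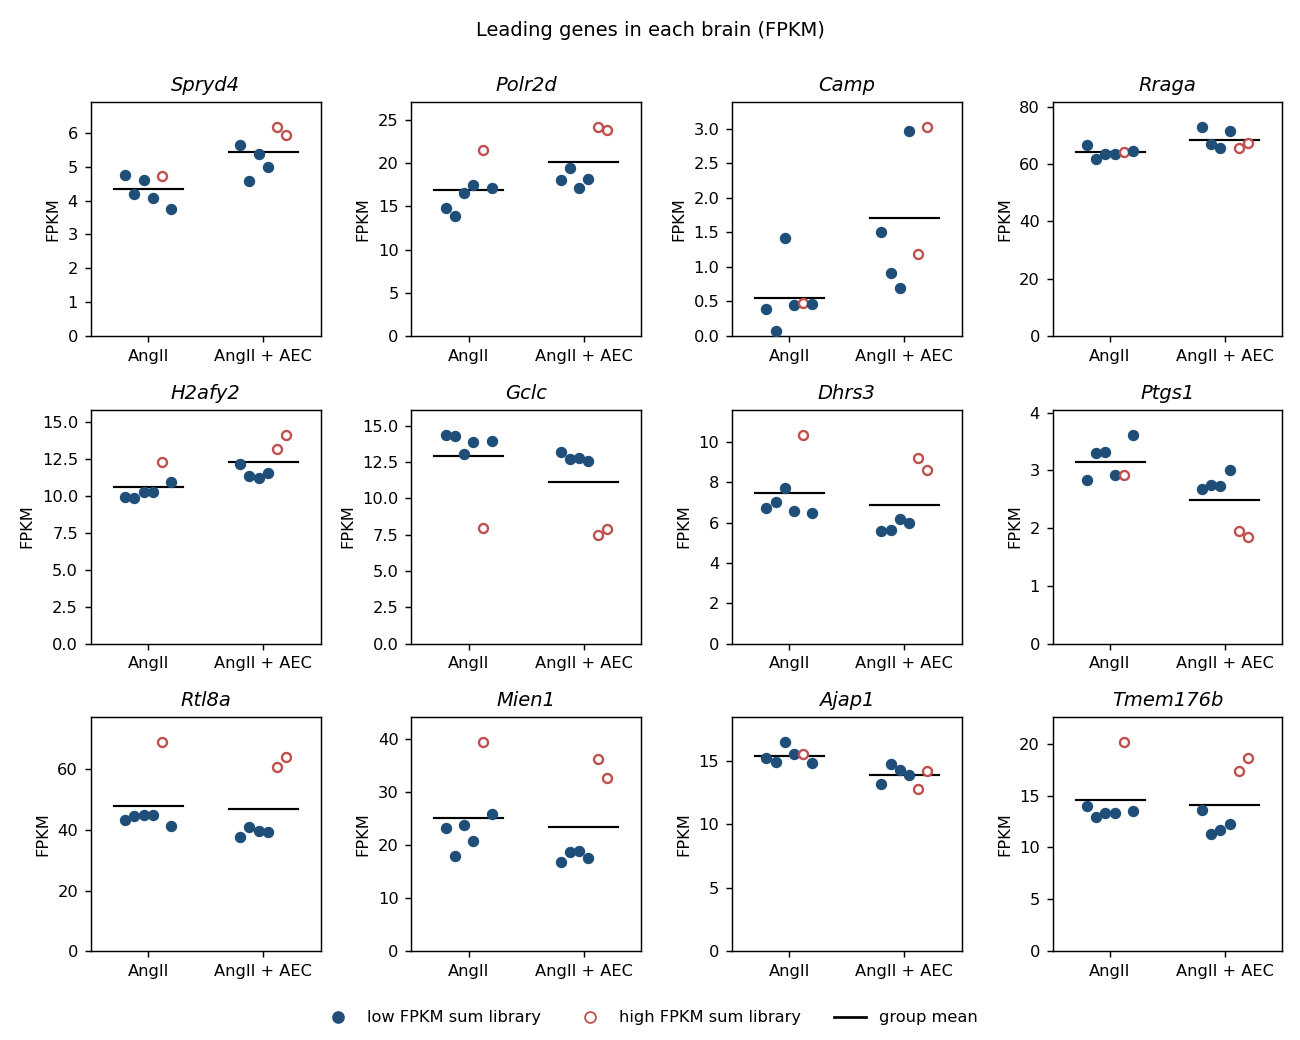
FPKM of 11 leading genes and Gclc in each brain after angiotensin II (AngII) and angiotensin II + amnion epithelial cells (AngII + AEC), with 1 point a mouse, filled for the low set and open for the high set, and a line at the group mean. In Dhrs3, Rtl8a, Mien1 and Tmem176b the 3 open points lie above all filled points, while in Ajap1 every treated mouse lies below every angiotensin II mouse.

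Only 8 genes, or 0.0584% of those examined, had groups without any overlap, of which 4 were higher and 4 lower with the cells. Beside Ajap1, the lower genes were Whamm, an activator of actin nucleation, at 7.49 to 8.46 against 6.93 to 7.35 FPKM, Isg20l2, an exoribonuclease, at 4.27 to 4.73 against 3.76 to 4.18, and Gss, the enzyme of the last step of glutathione synthesis, at 4.59 to 4.91 against 4.22 to 4.58. The higher genes included 1700001K19Rik at 3.07 to 4.52 against 4.55 to 6.09 FPKM and the processed pseudogenes Gm13868 and Gm17241. Gm13868 lies within Trim44 and Gm17241 within Smarcd1, and in some libraries they rest on 3 and 2 reads. Gss overlaps Acss2 and antisense transcripts. Whether reads were assigned by strand is not given in the sources used here. Isg20l2 had an unadjusted p of 0.211 in limma. These genes were named after their values were seen.

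Of 61 lists of genes, 25 marked cell types or brain regions and 36 held pathways or gene families. Together they held 971 different genes of the 13694, of which 6 were higher and 9 lower at an unadjusted p under 0.05. These are 0.618% and 0.927% of the listed genes, below the shares of 1.10% and 1.89% over all 13694 genes. In 47 lists no gene passed. The median difference lay within 0.1 of 0 on the log2 scale in 57 lists, and 920 of the 971 genes had an interval within 1.5-fold. The sign of the median turned in 28 lists without the set term and in 17 in the low set alone.

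The main cell types of the brain were identified by their markers in all libraries. Neuronal markers, such as Snap25 of the synaptic fusion machinery, had a median log2 difference of -0.017 over 12 genes. The median was 0.021 for 10 markers of excitatory neurons, -0.0094 for 13 of inhibitory neurons, 0.013 for 12 of astrocytes and 0.015 for 12 of oligodendrocytes. In these 5 lists no gene passed an unadjusted p under 0.05, and every gene had an interval within 1.5-fold. Snap25 was at 298 ± 13.5 FPKM after angiotensin II and 284 ± 20 after the added cells (SD, n = 6 each).

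Microglial markers were as close. Their summed level ranged from 189 to 257 FPKM after angiotensin II and from 199 to 290 after the added cells, and the 3 highest sums were those of the high set. The median log2 difference over 15 markers was 0.0055, none passed, and all had an interval within 1.5-fold. Csf1r, the receptor that microglia need to survive, was at 15.9 and 16.2 FPKM. Of 7 markers of border macrophages only Pf4 and Cbr2 reached 1 FPKM, with log2 differences of -0.19 and 0.05. The markers of T and NK cells, B cells and monocytes were mostly below 1 FPKM, with 2 of 10, 1 of 5 and 1 of 5 reaching it.

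In the vascular wall, 15 endothelial markers had a median log2 difference of -0.0075 and none passed. Cldn5, the main claudin of the blood-brain barrier, was at 45.3 ± 9.88 FPKM after angiotensin II and 52.2 ± 16.3 after the added cells (SD, n = 6 each). These means are not adjusted for the library set, and with the set term the 15 log2 differences ranged from -0.10 to 0.15. Of 8 mural cell markers 7 were lower, with a median of -0.093. Rgs5, a regulator of G protein signalling in pericytes, ranged from 19.8 to 23.1 FPKM with a median of 20.6 and from 15.7 to 23.2 with a median of 18.8. The treated group held both the lowest and the highest value. Its log2 difference of -0.15 ± 0.063 (SE) had an unadjusted p of 0.031 and lost that without angiotensin II mouse 2 or 5 or treated mouse 1, 2, 3 or 5. The smooth muscle genes Acta2 and Myh11 had log2 differences of -0.17 and -0.21 and did not pass, although Myh11 did without angiotensin II mouse 2. In voom and in the fit of the 12 mice alone, 3 of the 8 mural markers were lower at an unadjusted p under 0.05. Of all 13694 genes, 199 were lower in voom and 289 in the 12 mice alone. Without the set term 0 of the 8 markers passed and their median was -0.015. Acta2 was at 7.55 to 8.81 FPKM in the low set after angiotensin II and at 6.63 to 8.14 after the added cells. In the high set it was at 31.6 and at 25.3 to 27.0 FPKM.

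A few single markers of other cell types passed. Drd2, the dopamine receptor of indirect pathway striatal neurons, had a log2 difference of -0.19, while the 11 striatal markers had a median of -0.027. Neu4, a sialidase of the oligodendrocyte lineage, was at -0.19 with a median of -0.055 over 10 precursor markers. Dynlrb2, a dynein light chain, was at 0.33 among 8 ependymal markers with a median of -0.0014. Drd2 lost its unadjusted p under 0.05 without angiotensin II mouse 3 or treated mouse 3, Neu4 without angiotensin II mouse 2, 3, 5 or 6 or treated mouse 3, 4 or 5, and Dynlrb2 without angiotensin II mouse 1, 3 or 6 or treated mouse 3, 4 or 6. Dynlrb2 rests on 16 to 40 reads per library. Of 11 meningeal fibroblast markers, with a median of -0.075, Col1a1 alone passed. The choroid plexus list held no gene that passed among 9, and its main product Ttr was at 616 and 636 FPKM. The regional markers of hypothalamus, thalamus, hippocampus, cerebellum and olfactory bulb held none among 9, 7, 4, 9 and 4 genes. Without treated mouse 2 the cerebellum median moved from -0.0077 to 0.11, and Calb1, Neurod1 and Otx2 of the choroid plexus list passed as higher. Avp passed as lower without angiotensin II mouse 6 or treated mouse 3 or 4, and Tcf7l2 as higher without angiotensin II mouse 4.

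**Figure D2:**
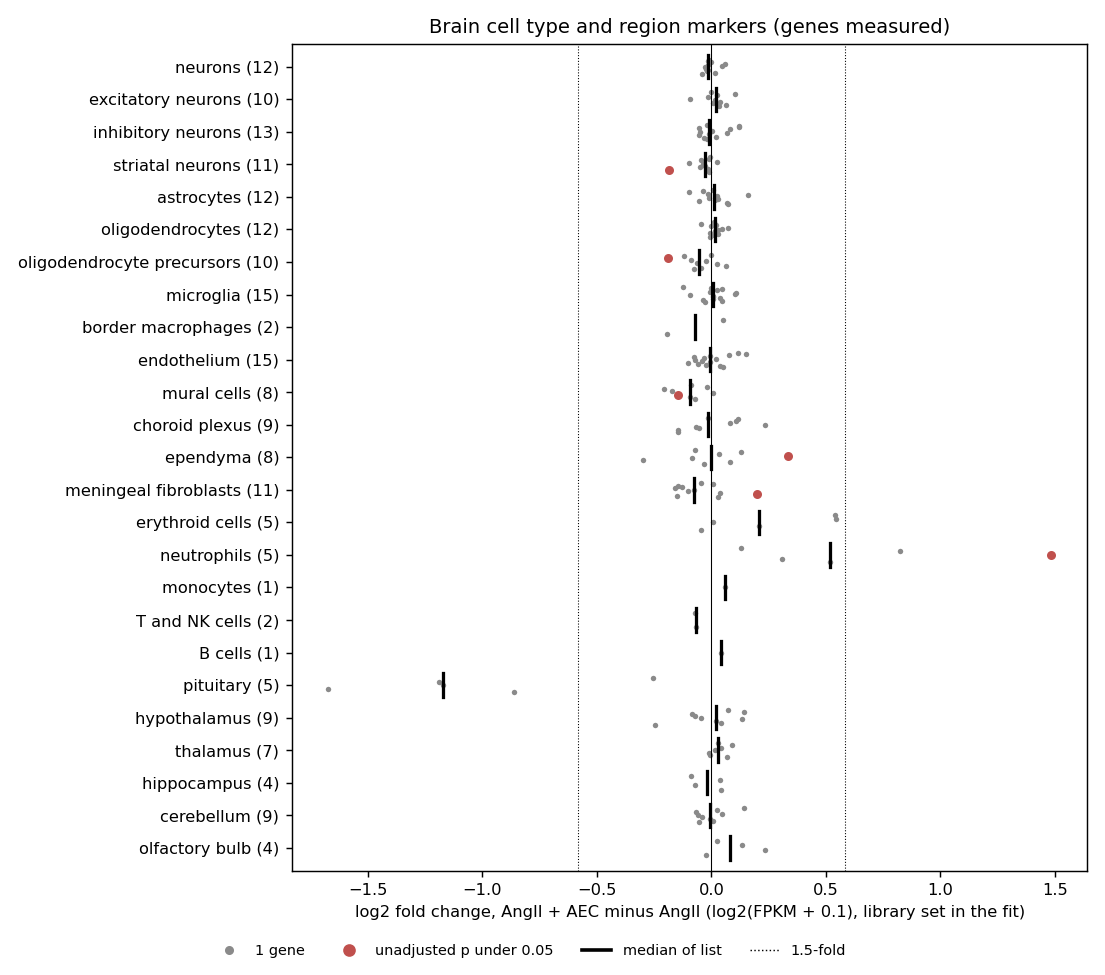
Log2 difference between angiotensin II + amnion epithelial cells and angiotensin II for every marker with a mean of 1 FPKM or more, in 25 lists of cell types and regions, with the number of genes in brackets, red points for an unadjusted p under 0.05 and a black bar at the median. The pituitary and neutrophil lists have the widest spread, with medians of -1.17 and 0.52, and 18 of the 25 lists hold only genes whose interval lies within 1.5-fold.

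The levels of pituitary, neutrophil and erythroid markers varied most from brain to brain. Pituitary markers summed to 1578 FPKM in angiotensin II mouse 4 and to between 2.94 and 34.2 in the other 11 mice. In that library the growth hormone gene Gh was at 1115 FPKM and Pomc at 343, against at most 26.2 and 4.65 elsewhere. All 5 pituitary genes were lower with the cells, with a median log2 difference of -1.17, and none passed. Without that mouse the median was -0.05, with Gh at 0.65 and Pomc at -0.05.

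Neutrophil markers summed to 7.44 to 27.0 FPKM with a median of 17.7 after angiotensin II and to 10.5 to 51.4 with a median of 22.4 after the added cells. The 3 highest sums belonged to treated mice, although the other 3 treated mice lay within the range of the angiotensin II group. Monocyte markers summed to 10.6 to 12 FPKM after angiotensin II and 8.77 to 19.0 after the added cells, with treated mice 1, 4, 5 and 6 above all angiotensin II mice and mice 4 and 6 highest in both sums. Treated mice 5 and 6 are of the high set, and 4 of the 5 monocyte markers were below 1 FPKM. The 1 monocyte gene above it differed by 0.061 with the set term and by -0.051 in the low set alone, and did not pass. All 5 neutrophil genes above 1 FPKM were higher, at 1.48 for Camp, 0.83 for Ngp, 0.52 for S100a8, 0.31 for S100a9 and 0.13 for Lcn2, and Camp alone passed. Ngp also did without angiotensin II mouse 3 or treated mouse 2 or 5, and voom gave 2 neutrophil genes. The median was 0.52 and ranged from 0.26 to 0.67 as each mouse was left out. Ly6g, Mpo and Elane, with 2 further markers, were below 1 FPKM. The erythroid markers summed to 36.8 to 190 FPKM after angiotensin II and to 41.3 to 168 after the added cells, and the part of either list in the neutrophil values was not tested. None of 5 erythroid genes passed. Without angiotensin II mouse 6 Hbb-bt and Alas2 passed an unadjusted p under 0.05, as did Alas2 without treated mouse 3.

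**Figure D3:**
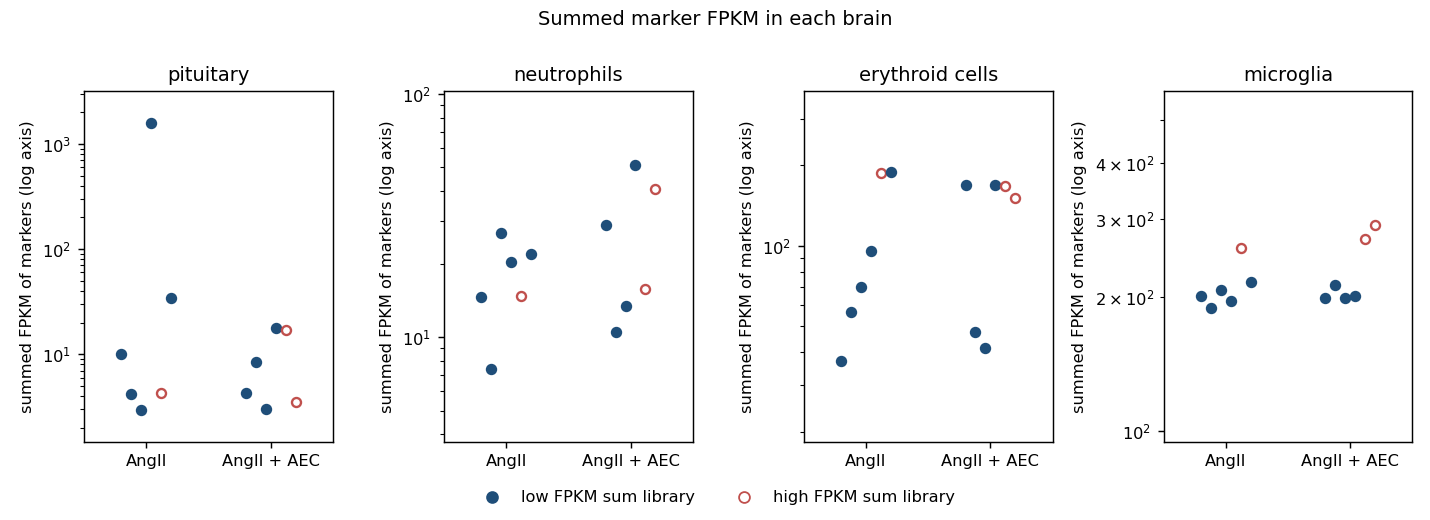
Summed FPKM of the markers of pituitary, neutrophils, erythroid cells and microglia in each brain on a log axis, 1 point a mouse, filled for the low set and open for the high set. Angiotensin II mouse 4 stands alone at 1578 FPKM for pituitary, and the microglial sums differ by set more than by group.

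In the renin-angiotensin system, 8 of 12 genes were above 1 FPKM and none passed. Agt, the angiotensinogen that astrocytes secrete, was at 53.8 and 54.0 FPKM, and Ace at 6.25 and 6.30. Atp6ap2, the prorenin receptor, had a log2 difference of 0.05 with an unadjusted p of 0.0764, which passed 0.05 without angiotensin II mouse 5 or without treated mouse 2. Of the nitric oxide and endothelin genes none of 12 passed, and the 13 metalloproteinases and their inhibitors had a median of 0.0003 with none that passed.

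In the lists of inflammation and immunity no gene with a mean of 1 FPKM or more passed an unadjusted p under 0.05. None of 9 complement genes passed, with C1qa at 46.0 and 51.8 FPKM and C4b at 5.96 and 5.91. These means are not adjusted for the library set, and with the set term the 9 log2 differences ranged from -0.084 to 0.053. The lists of cytokine and Toll-like signalling (15 genes), chemokines and receptors (10), interferon response (13), antigen presentation (11) and adhesion molecules (9) held none that passed either. Their median log2 differences were -0.0094, 0.011, 0.055, -0.022 and -0.0004. Below 1 FPKM, and so not examined, were 11 complement, 11 cytokine and Toll-like, 14 chemokine, 7 interferon, 5 antigen presentation and 6 adhesion genes. In the interferon list 10 of 13 genes were higher, with Bst2 at 0.18 and Isg15 at -0.22, while in the low set alone the median was -0.013. In the antigen presentation list 10 of 11 were lower, and H2-Ab1, the beta chain of an MHC class II molecule, was the exception at 0.25. H2-Ab1 passed without angiotensin II mouse 1 or 2 or treated mouse 1 or 2, and other genes of the list passed as lower in 4 further fits that left out 1 mouse. Without the set term the median of the list was 0.059.

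Among 20 genes singled out in the study for this comparison, 2 reached 1 FPKM, and both had been chosen on these samples. The first was Camp. The other was Trbj2-1, a J segment of the T cell receptor beta locus, at 0 to 4.02 FPKM with a median of 1.52 after angiotensin II and 0 to 1.04 with a median of 0.472 after the added cells. These values rest on 0 to 4 reads per library. The 3 treated mice 1, 2 and 6 and 1 angiotensin II mouse had no read. The exact permutation test gave p = 0.0671.

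The 17 genes of TGF-beta signalling had a median of -0.033 with none that passed, and the 20 collagen chains a median of -0.017 with Col1a1 alone passing. Col1a1, a chain of type I collagen, ranged from 2.04 to 4.21 FPKM with a median of 2.26 after angiotensin II and from 2.32 to 6.12 with a median of 2.58 after the added cells. The 3 highest values were those of the high set. The log2 difference was 0.20 ± 0.094 (SE) with an unadjusted p of 0.0443, and it was lost without angiotensin II mouse 2, 3, 4, 5 or 6 or treated mouse 1, 2 or 6. Vehicle mice without and with cells had means of 2.99 and 2.14 FPKM, not adjusted for the set. Vehicle mice 5 and 6, and mouse 6 of the vehicle mice with cells, were of the high set. With the set term the interaction was 0.48 (limma, unadjusted p = 0.00163). Col1a1 was named for its difference under angiotensin II, which is part of the interaction, so this p is not an independent test. In the VEGF and angiopoietin list Vegfb, a growth factor gene, differed by -0.08. It lost its unadjusted p of 0.0494 in 11 of the 12 fits, and the difference was 0.02 in the fit without the set term.

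Oxidative stress genes were represented by 24 members of the NADPH oxidase and antioxidant list, with a median of 0.0020. Gclc, the catalytic subunit of the first and rate-limiting step of glutathione synthesis, alone passed. In the low set it was at 13.1 to 14.4 FPKM after angiotensin II and at 12.6 to 13.2 after the added cells, and in the high set at 7.96 and at 7.46 to 7.89 FPKM. The groups overlapped slightly in the low set and did not in the high set. Over all mice the range was 7.96 to 14.4 with a median of 13.9 and 7.46 to 13.2 with a median of 12.6. The log2 difference was -0.10 ± 0.032 (SE) with an unadjusted p of 0.00437, and it passed in each of the 12 fits that left out 1 mouse. Gss, an enzyme of the same pathway, is not in this list and was named above after its values were seen (limma, unadjusted p = 0.0477). Gclm and Gsr, which the list also holds, were not among the genes that passed.

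The 13 genes of the mitochondrial genome had a median of -0.048, the 99 nuclear genes of the respiratory chain -0.014 and 20 genes of glycolysis 0.013. Of 78 cytosolic ribosomal protein genes 68 were lower, with a median of -0.038. Without the library set term the medians of the mitochondrial genome, the respiratory chain and the ribosomal proteins were 0.025, 0.089 and 0.070, the opposite direction. None of these genes passed with all mice in the fit.

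The 25 genes of the synaptic vesicle cycle and 22 of the postsynaptic density had medians of -0.0032 and 0.011, none passed, and all had an interval within 1.5-fold. Of 37 glutamate and GABA receptor subunits, Grik1 of the kainate receptors passed at -0.20. Of 67 potassium channel genes, Kcnj16, a glial inward rectifier, passed at -0.20. Of 9 monoamine genes, Slc6a3, the dopamine transporter, passed at -0.26. Slc6a3 ranged from 3.24 to 5.36 FPKM with a median of 4.04 after angiotensin II and from 2.40 to 3.95 with a median of 3.27 after the added cells. The 2 lowest treated values came from the high set, and the groups overlapped. Grik1 lost its unadjusted p under 0.05 without angiotensin II mouse 4, 5 or 6 or treated mouse 1, 3 or 6, and Slc6a3 without angiotensin II mouse 4 or 5 or treated mouse 3. Kcnj16 passed in all 12 fits that left out 1 mouse.

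Immediate early genes are induced within minutes of neuronal activity. Of 16, 15 were higher with the cells, with a median of 0.12, and none passed. The median was 0.026 without angiotensin II mouse 5, 0.28 without treated mouse 4 and 0.062 in the low set alone. Arc, which acts at active synapses, ranged from 17.9 to 57.3 FPKM with a median of 38.7 after angiotensin II and from 14.9 to 73.7 with a median of 62.8 after the added cells. Treated mouse 4 had the lowest value of all 12. Without it Arc and Btg2 passed an unadjusted p under 0.05, and Btg2 also did without angiotensin II mouse 2. Arc then differed by 0.74. Of 16 clock genes, the repressor Bhlhe41 passed at -0.15, except without angiotensin II mouse 4 or treated mouse 4 or 6, and none of 15 glucocorticoid targets did.

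The list with more than 1 gene that passed was that of the clustered protocadherins, the adhesion proteins by which neurons distinguish themselves. Of 26 genes 17 were higher, with a median of 0.079, and Pcdhb7 (0.32), Pcdhga3 (0.25) and Pcdhga12 (0.20) passed. Without the set term the median was -0.020 and none passed. Without treated mouse 6 only Pcdhb7 passed. Pcdhb7 ranged from 0.958 to 1.46 FPKM with a median of 1.19 after angiotensin II and from 1.07 to 2.06 with a median of 1.42 after the added cells, with overlap. The Pcdhga genes share their last exons, so their values are not independent.

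**Figure D4:**
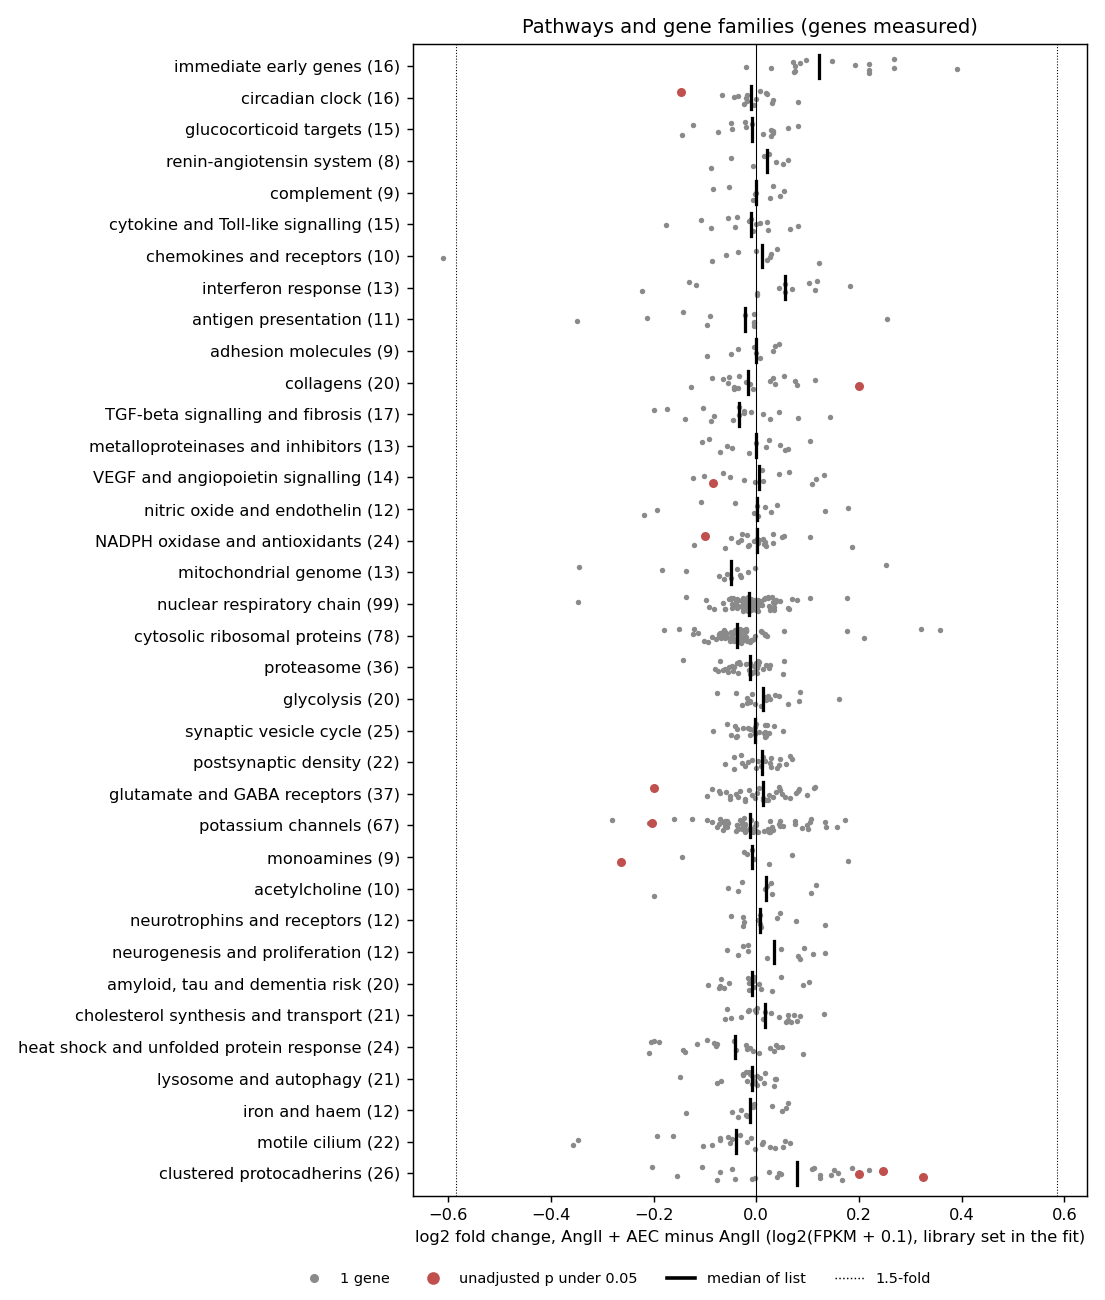
Log2 difference between angiotensin II + amnion epithelial cells and angiotensin II for every gene of 36 pathways and families with a mean of 1 FPKM or more, with the number of genes in brackets, red points for an unadjusted p under 0.05 and a black bar at the median. Medians lie near 0, and immediate early genes and clustered protocadherins have the highest, at 0.12 and 0.079.

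The result for 2 pathways differed between the fit over both sets and the low set alone. The first was the unfolded protein response, by which the endoplasmic reticulum raises its chaperones when client proteins fail to fold. Over both sets none of 24 heat shock and unfolded protein response genes passed, and the median was -0.041. Without angiotensin II mouse 4, the brain with the high pituitary sum and a member of the low set, that median was -0.00025. Within the low set, with 5 angiotensin II and 4 treated mice, 6 were lower and the median was -0.10. Of all 13694 genes, 2.55% were lower at an unadjusted p under 0.05 in that fit and 1.60% were higher.

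Manf, a chaperone-like secreted factor, was at 15.4 to 17.5 FPKM in the low set after angiotensin II and at 10.9 to 13.8 after the added cells, without overlap. In the high set it was at 19.1 FPKM in the 1 angiotensin II mouse and at 22.6 to 27.6 in the 2 treated mice. Hspa5, the chaperone BiP, was at 69.8 to 95.5 and 54.9 to 70.0 FPKM in the low set, and at 73.1 and 94.5 to 98 in the high set. Sdf2l1, a partner of BiP, was at 14.2 to 20.7 and 11.1 to 12.9 FPKM in the low set, and at 17.4 and 23.2 to 32.8 in the high set. In each of these genes treated mice were lower in the low set and higher in the high set. The log2 differences within the low set were -0.38 for Manf (unadjusted p = 0.00562), -0.34 for Hspa5 (0.0356) and -0.48 for Sdf2l1 (0.0355). Over both sets they were -0.19, -0.14 and -0.20. Pdia4, Pdia6 and Hsf1 also passed in the low set.

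Promoters of this group hold a known element, and a match in each of 5 genes is shown because Hspa5 and Pdia6, which passed in the low set, are among them. Pdia4 and Sdf2l1 held no match in this window. Manf and Hsf1, which also passed in the low set, were not among the 5 genes either. The ER stress response element, CCAAT and CCACG with 9 bases between them, was searched on both strands from 250 bases before to 50 bases after the start of each gene in RefSeq (GRCm38.p6). It was present in 39 of 32851 promoters (0.119%). Of the 24 genes 18 had a promoter there, and 5 of these held the element. The runs below read 5′ to 3′ along the gene, with the element in capitals, and where it lies on the opposite strand it appears as CGTGG and ATTGG. Hspa5 is at chr2:34772020-34772048, Pdia6 at chr12:17266486-17266514, Hsp90b1 at chr10:86705633-86705661, Creld2 at chr15:88819515-88819543 and Calr at chr8:84847070-84847098. Hspa5, Pdia6 and Creld2 are on the plus strand, and Hsp90b1 and Calr on the minus strand. Hsp90b1 holds a further match that is not shown.
Hspa5: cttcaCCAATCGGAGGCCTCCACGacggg
Pdia6: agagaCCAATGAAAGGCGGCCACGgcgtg
Hsp90b1: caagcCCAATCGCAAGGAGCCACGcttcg
Creld2: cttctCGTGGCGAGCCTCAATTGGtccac
Calr: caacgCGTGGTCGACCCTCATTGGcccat
Within the low set these 5 genes had log2 differences of -0.34 (Hspa5), -0.19 (Pdia6), -0.10 (Hsp90b1), -0.21 (Creld2) and -0.14 (Calr), and Hspa5 and Pdia6 passed. A match describes the sequence and says nothing of binding in these brains.

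The second pathway was cholesterol synthesis, in which the sterol sensor Insig1 and the enzymes Hmgcs1, Sqle and Msmo1 are known to be transcribed together when sterols are scarce. Over both sets none of 21 genes passed, and the median was 0.017. Within the low set 5 were higher, among them Insig1, Msmo1, Hmgcs1 and Sqle, beside the 1.60% of all genes given above, and the median was 0.062. Insig1 was at 17.5 to 21.6 FPKM in the low set after angiotensin II and at 22.3 to 24.1 after the added cells, without overlap. In the high set it was at 14.6 and at 11.2 to 11.9 FPKM, the opposite direction. The log2 difference was 0.27 in the low set (unadjusted p = 0.000597) and 0.13 over both sets (unadjusted p = 0.0979). Without angiotensin II mouse 5, the only angiotensin II library of the high set, Hmgcs1, Insig1, Msmo1 and Sqle passed. The sterol regulatory element, TCAC and CCAC with 1 base between them, was found in 408 of 32851 promoters (1.24%) and in 1 of the 14 cholesterol genes with a promoter there, Hmgcs1.

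**Figure D5:**
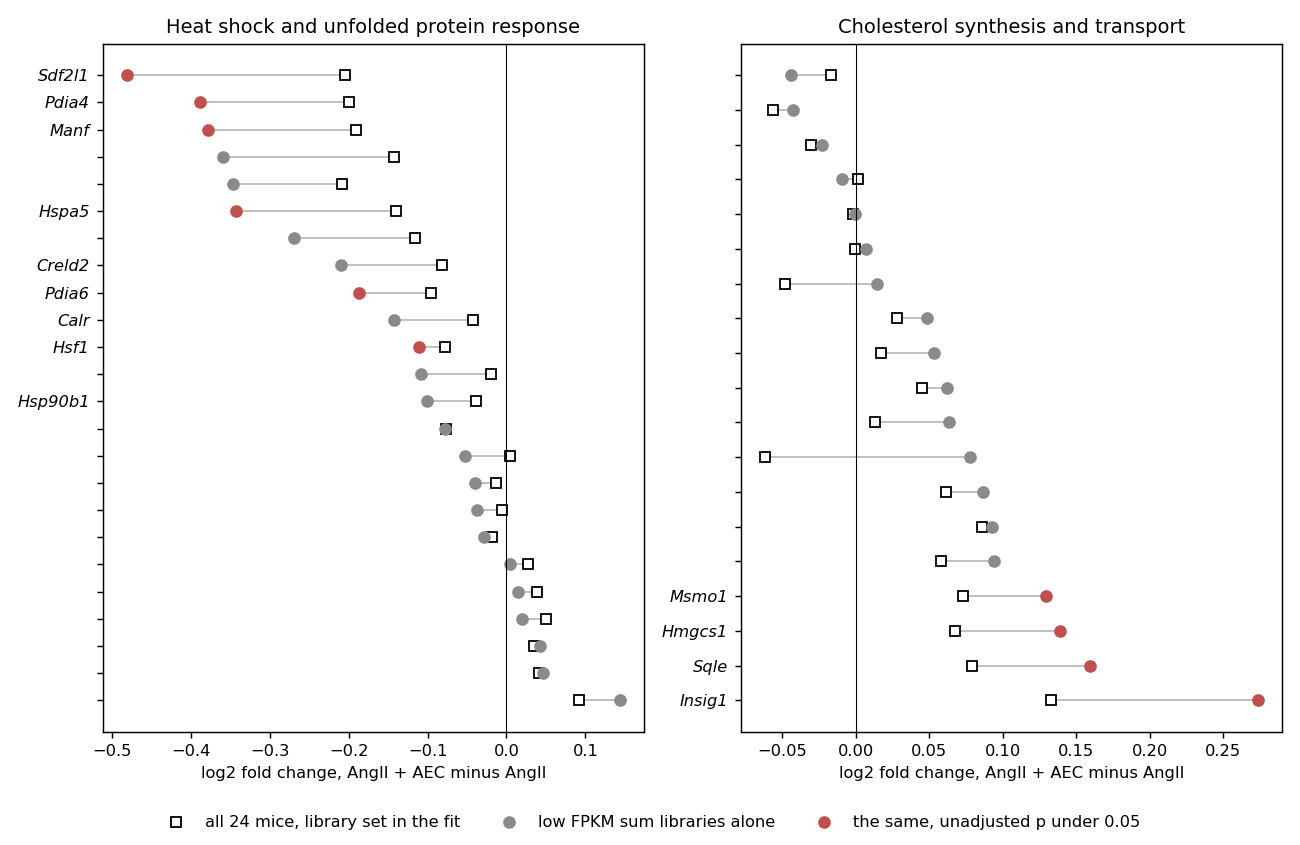
Log2 difference between angiotensin II + amnion epithelial cells and angiotensin II for genes of the heat shock and unfolded protein response and of cholesterol synthesis, with open squares for the fit over all 24 mice with the library set as a term, circles for the low set alone, red circles for an unadjusted p under 0.05 there, and names for the genes described in the text. Sdf2l1, Pdia4 and Manf lie furthest to the left and, among the cholesterol genes drawn, Insig1 furthest to the right in the low set, and for these 4 genes the values over both sets are nearer to 0.

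The remaining lists held no gene that passed in the fit over both sets. They were proteasome (36 genes, median -0.012), acetylcholine (10, 0.019), neurotrophins and receptors (12, 0.0073), neurogenesis and proliferation (12, 0.034), amyloid, tau and dementia risk (20, -0.0083), lysosome and autophagy (21, -0.0079), iron and haem (12, -0.013) and motile cilium (22, -0.040).

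An interaction term set what the cells did under angiotensin II against what they did in vehicle mice. None of the 13694 genes passed an adjusted p under 0.05 in limma, with 1.0 as the smallest, and 303 passed an unadjusted p under 0.05. The comparison of angiotensin II with vehicle shares the 6 angiotensin II mice with the comparison described here, so their values enter both with opposite sign. Side by side, the log2 differences of angiotensin II from vehicle and of the added cells from angiotensin II were -0.27 and 0.27 for Spryd4, 0.12 and 1.48 for Camp, 0.02 and -0.29 for Ptgs1, 0.15 and -0.23 for Dhrs3, and 0.23 and -0.26 for Slc6a3.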

How the data were processed

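The authors deposited FPKM values for 54532 genes with gene lengths and GRCm38 coordinates; per the labels, DESeq 1.10.1 was used, and the aligner, counter and strand setting are not given in the sources used here. FPKM multiplied by gene length and by 1 factor per library gave whole fragments for 100% of values, within 0.01 fragments. Differences were tested with limma 3.58.1 in R 4.3.3 on log2(FPKM + 0.1), which understates changes of low genes. All 24 mice entered 1 fit with group and library set (FPKM sum above 320000 or not), eBayes with trend, and Benjamini-Hochberg adjustment over 27286 genes above 0 in 6 or more mice. For single genes an exact permutation test (two-sided) used all 924 splits of the 12 mice. The fit was tested on simulated data. Figures used Python 3.11.15 and matplotlib 3.10.9.

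Genes and lists were chosen with earlier results of these data known. Named genes were the 12 with the lowest unadjusted p in each direction, up to 4 per list that passed (otherwise the 2 most expressed), and genes the study named. Single results of some of these genes are not reported here. Other genes with values were named after their values were seen. Alternatives were other pseudocounts, filters, subsets of mice, set terms, a replicate block, rescaling, voom, array weights and each mouse left out.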

Additional observations from a re-analysis of the deposited data

Results flagged for a closer look

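In 254 groups of 6 mice, from the 127 genes named by rule, the most extreme mouse was checked against the others with Dixon's ratio, at its 95% critical value for 6 samples, after the library set effect was subtracted, a step chosen after seeing the data. In 16 groups a mouse stood apart, and chance gives about 1 in 20. Among angiotensin II mice, Pomc was high in mouse 4 at 343 FPKM against a group median of 2.55 (ratio 0.834), the library with the high pituitary sum. Ifitm3 was low in mouse 5 relative to its set (0.66) and mt-Co1 in mouse 1 (0.643). Among mice given angiotensin II and cells, mouse 2 was high for Anapc16 (0.696), Cxcl14 (0.629), Ddah1 (0.659) and Cyp46a1 (0.743), and low for Zic1 (0.649), Calb1 (0.726) and Atp6ap2 (0.626). Mouse 4 was low for Egr1 at 29.7 FPKM against a median of 53.7 (0.806) and high for Kcnj16 (0.659). Mouse 6 was high for Col1a1 at 6.12 FPKM (0.671) and low for Doc2g (0.78). Oxt was low in mouse 5 (0.705) and Pgm5 in mouse 1 (0.676).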

How the results depend on the processing

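The count of adjusted p under 0.05 was 0 in every fit of the comparison and in every fit of the interaction, which the 12 mice alone cannot give, and the lowest adjusted p of a gene at 1 FPKM or more was 0.821, in the low set alone. The number of genes at an unadjusted p under 0.05 was 409, and 114 without the library set term, with 57 higher and 57 lower. Without that term 4 listed genes, 3 cell type markers and 13 of the 24 leading genes passed, 21 of 38 passing named genes no longer passed, and Vegfb turned to 0.024. In the low set alone 43 listed genes passed, against 15. An interval within 1.5-fold was found for 12791 genes in the main fit, for 11416 without the set term and for 12572 in the low set alone. With splits within the library sets, 24 leading genes had an exact permutation p under 0.05, against 12 over all splits. The 24 were chosen for the lowest p in these same mice, so counts of them are no independent check. With 1 mouse left out, 370 to 500 genes passed, 152 to 200 higher and 214 to 326 lower, 12672 to 12741 had an interval within 1.5-fold, 24 leading genes passed, and adjusted counts stayed at 0. Listed genes that passed then numbered 17 to 30, with 26 without angiotensin II mouse 1, 30 without mouse 5, and 25 without treated mouse 2 or 4. Cell type markers numbered 3 to 8, with 3 without angiotensin II mouse 3. The replicate block gave 451 genes, and 6 of the 38 named genes no longer passed. Once the set term was taken out, same-numbered mice of the 2 groups did not deviate together (correlations from -0.192 to 0.0006). In 0 of 6 numbers was the best partner then the mouse of the same number. With the set effect left in, the correlations ran from -0.192 to 0.772, highest for number 5. The high set holds only mice numbered 5 or 6, so number and library set are linked. The other fits gave 383 (voom) to 463 (array weights) genes, and 568 in the low set alone. Camp and Trbj2-1 rest on few reads, which limits their precision.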
